A study of Mus musculus with 6 samples.

Results

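The 36 genes described here encode proteins of the sarcomere and of the calcium and energy supply around it, and they were picked by gene symbol out of the 54115 genes that had a transcript in the deposited tables. The rule used the symbols and no measured value, though earlier results of these data were known when it was made. They comprise 11 genes of the thin filament with nebulin, 13 of the thick filament, 7 of the Z-disc with titin, and 5 of calcium handling and energy supply. RNA was sequenced from satellite cells, the resident stem cells of skeletal muscle, in 3 Pax7WT and 3 Pax7KR samples. Both groups are C57BL/6J mice, 6 to 8 weeks old by the study's methods. Pax7KR mice are homozygous for the K193R substitution, which replaces a lysine of the transcription factor PAX7 by arginine so that this residue cannot be acetylated, and Pax7WT mice are littermates with the unchanged allele. The allele was made with Cas9 in zygotes. Cells from uninjured hindlimb muscle were dissociated, filtered and sorted as positive for CD34 and α7-INTEGRIN and negative for CD45, SCA-1, CD31 and CD11b. The methods do not say whether fragments of myofibres or free RNA were excluded. The labels call the 3 samples of a group biological replicates but do not say how many animals went into each.

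A sarcomere shortens when myosin heads on the thick filament pull on actin in the thin filament. Calcium released from the sarcoplasmic reticulum through the ryanodine receptor binds troponin C, and troponin I, troponin T and tropomyosin then free the actin for myosin. Fast, slow, embryonic and neonatal fibres use different paralogues of most of these proteins, and an undifferentiated satellite cell has no sarcomeres.

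Each library held 17822367 to 27908054 estimated read pairs, of which the 36 genes together took a very small part. Satellite cell identity was checked on 12 marker genes. Their summed level was 5645 to 6641 TPM (reads scaled for transcript length and for library depth) in every library, with Pax7 itself at 541 ± 42.5 TPM in Pax7WT and 543 ± 36.4 TPM in Pax7KR (SD, n = 3). Pax7 message differed between the genotypes by a log2 fold change of -0.05 (SE 0.08). The substitution leaves the message in place, so its level does not check the genotype labels. No library was left out.

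The 36 sarcomere genes together were about as abundant as Pax7 alone. Their summed level was 543, 542 and 608 TPM in the 3 Pax7WT libraries and 576, 520 and 530 TPM in the 3 Pax7KR libraries, or 565 ± 37.7 TPM against 542 ± 29.8 TPM (SD, n = 3). The groups overlap. A bulk library does not tell fewer cells of a type from less RNA per cell, and this holds for every level below. All transcript models of a gene count in the sum, also those of a short Tpm1 form that held 66.3% of the Tpm1 TPM. The sum rested on few genes. Tpm1, Actn3, Tnnt1, Mybpc1, Tpm2 and Atp2a1 held 71.7% to 79.1% of it in each library, and the other 30 genes shared 134 ± 20.9 TPM in Pax7WT and 137 ± 23.2 TPM in Pax7KR. Averaged over the 6 libraries, 11 genes reached 10 TPM, 14 lay between 1 and 10 TPM and 11 lay below 1 TPM.

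The order of the levels differed from that known for myofibres. In an adult fast fibre Acta1, Ckm, Mylpf, Tnnc2 and Myh4 are among the most abundant messages. Here Acta1 averaged 21.7 TPM, Tnnc2 12.6 TPM, Ckm 12.2 TPM, Mylpf 8.46 TPM and Myh4 2.21 TPM over the 6 libraries, all below Tpm1 at 112 TPM, Actn3 at 108 TPM, Tnnt1 at 80.1 TPM and Mybpc1 at 44.1 TPM. In these cells 1177 of 24077 genes with any TPM stood above Tpm1, whereas 8502 stood above Ckm. The place of Tpm1 is not that of a sarcomeric message alone, since models of a short form with 248 codons held 66.3% of its TPM. No myofibre library is among the data to compare with. The genes are therefore called sarcomere genes here and not myofibre genes, and which cells their RNA came from was not tested.

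**Figure D1:**
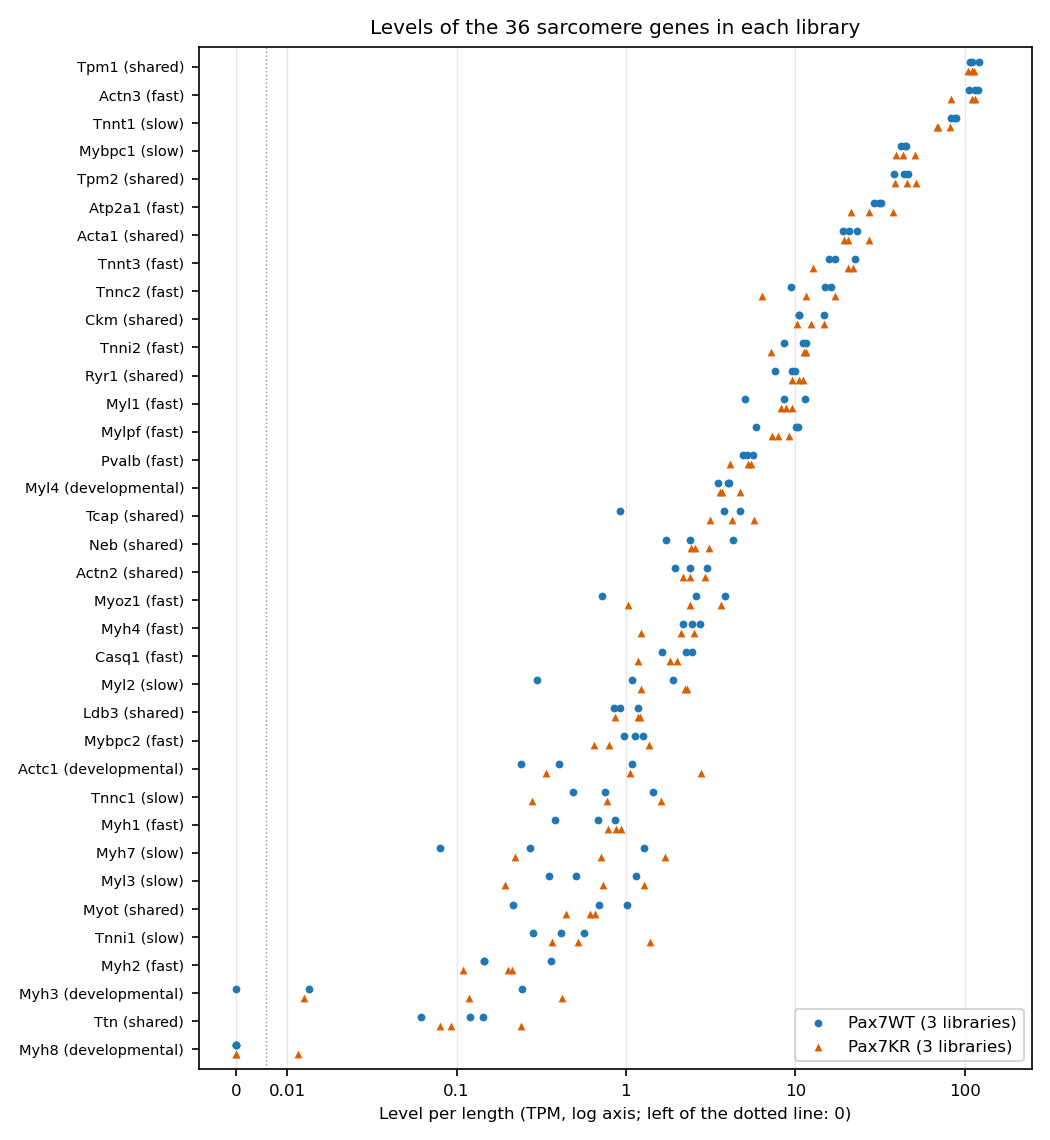
Level of each of the 36 sarcomere genes in TPM (log axis) in the 3 Pax7WT libraries (circles) and the 3 Pax7KR libraries (triangles), ordered by the mean over the 6 libraries, with the fibre class of each gene in parentheses. Levels run from 112 TPM for Tpm1 to 0.00194 TPM for Myh8, and the points of both genotypes lie among each other in nearly every row.

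None of the sarcomere genes differed between the genotypes past the cut-off. Of the 36 genes, 35 had the 5 reads in at least 2 libraries needed for the test, and Myh8 had 1 read in all 6 libraries. By edgeR's quasi-likelihood test on the read counts, 0 of 35 passed an adjusted p of 0.1, against 0% of all 17152 genes tested, and the lowest adjusted p among them was 0.992. DESeq2 and limma-voom also called 0 of them. At an unadjusted p under 0.05 there was 1 sarcomere gene, Tnnt1, lower in Pax7KR, where 4.68% of all genes tested had such a p. Split by direction, 1 sarcomere gene was lower beside 2.43% of all genes, and 0 were higher beside 2.26%. In 2 of 35 genes the normalized counts of the genotypes did not overlap, where 10.3% of all genes tested did not overlap. These were Tnnt1, lower in Pax7KR as in 5.19% of all genes, and Myl2, higher as in 5.14%. Fold changes were below 0 in 19 of the 35 genes, where 51% of all genes tested were, and above 0 in 16. Their median was -0.06 on the log2 scale beside -0.0037 over all genes tested. The 95% interval spanned 0 in 34 genes, and it lay within 1 log2 unit of 0 on both sides in 21.

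**Figure D2:**
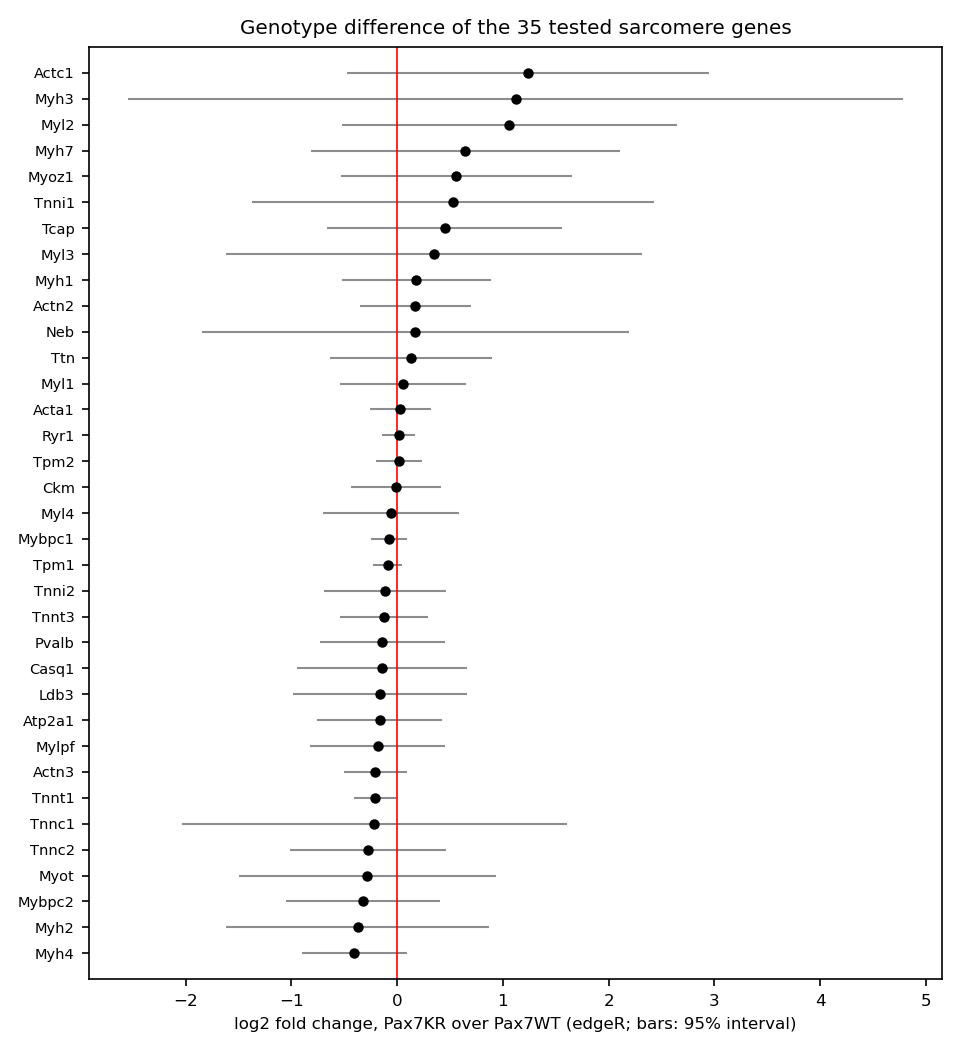
Log2 fold change of Pax7KR over Pax7WT for the 35 tested sarcomere genes (points) with the 95% interval from edgeR (bars), ordered by size. The interval of Tnnt1 ends at -0.01, all others span 0, and those of Myh3 and Neb are among the widest.

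Within the thin filament, tropomyosin winds along actin and sets where myosin can bind. Tpm1, the alpha-tropomyosin gene at chr9:67022590-67049406 (GRCm38), measured 110, 108 and 122 TPM in Pax7WT and 114, 105 and 110 TPM in Pax7KR. The 2 groups overlap, and the log2 fold change was -0.09 with a 95% interval from -0.23 to 0.05. Tpm1 makes both long tropomyosins, the only kind built into sarcomeres, and short ones of the cytoskeleton, which start at a promoter inside the gene. The deposited tables assigned most of Tpm1 to a short form. Tpm1-211, with 248 codons, held 64.8% of the gene's TPM and 60.7% to 71.8% in single libraries, and all models of 248 codons together held 66.3%. Models of 284 codons, the length of the sarcomeric form, held 22.7%, from 14.6% to 31.4% in single libraries, with Tpm1-205 at 10.1% and Tpm1-215 at 6.22%. That length alone does not mark a model as sarcomeric.

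The coding starts show how the short and the long models differ, and are printed as the first 60 coding bases of the GENCODE M21 transcripts, with the start codon in capitals.
Tpm1-211, 248 codons: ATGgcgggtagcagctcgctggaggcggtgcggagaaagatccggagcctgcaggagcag
Tpm1-205, 284 codons: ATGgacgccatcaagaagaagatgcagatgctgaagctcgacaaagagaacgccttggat
Tpm2-202, 284 codons: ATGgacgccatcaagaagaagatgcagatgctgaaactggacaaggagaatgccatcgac
Tpm1-205 and Tpm1-215 begin with the same bases. Tpm1-211 starts 5411 bases further into the gene than Tpm1-205. From its coding base 133 to its end at 744 it runs identical to Tpm1-215, a stretch of 612 bases. Reads within that stretch fit both models, so the share of each rests on how salmon divided them. The beta-tropomyosin gene Tpm2 opens with the same 35 coding bases as the long Tpm1 models.

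By length of the coding sequence neither form of Tpm1 separated the genotypes. The 248-codon models summed to 80.2, 70.4 and 76.7 TPM in Pax7WT and 75.9, 63.7 and 77.2 TPM in Pax7KR. The 284-codon models summed to 16.2, 25.3 and 30.5 TPM in Pax7WT and 25.1, 32.9 and 21.8 TPM in Pax7KR, with overlapping groups in both cases. The long models alone were at 24.0 ± 7.28 TPM in Pax7WT and 26.6 ± 5.71 TPM in Pax7KR, which is not a level of sarcomeric message. From coding base 241 on, Tpm1-215 is identical to the short Tpm1-211 to the end, but to Tpm1-205 only to base 773. Tpm2 was at 42.8 ± 4.09 TPM in Pax7WT and 45.3 ± 6.41 TPM in Pax7KR. Of this, 96.8% was on 284-codon models, a length that does not mark Tpm2 models as sarcomeric either. Its log2 fold change was 0.02 (SE 0.10, 95% interval -0.20 to 0.24), and it was split almost evenly between Tpm2-202 with 48.6% and Tpm2-203 with 46.5% of the TPM, which share their first 563 coding bases.

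Troponin T ties troponin to tropomyosin, troponin I blocks actin and troponin C binds calcium. Tnnt1, the slow troponin T gene at chr7:4504570-4516382, was the sarcomere gene with the lowest p. It measured 87.6, 83.1 and 89.2 TPM in Pax7WT and 69.6, 69.2 and 82.2 TPM in Pax7KR. Every Pax7KR library lay below every Pax7WT library, and the third Pax7KR library came within 1 TPM of the lowest Pax7WT library. By edgeR the log2 fold change was -0.21 (SE 0.09, 95% interval -0.40 to -0.01) with an unadjusted p of 0.0387 and an adjusted p of 0.992. Of all genes tested, 2.43% were lower in Pax7KR at an unadjusted p under 0.05. Without each library in turn the log2 fold change ran from -0.26 to -0.16.

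The troponin subunits did not keep the proportions of 1 complex. Slow troponin T stood at 80.1 TPM on average, while its slow partners Tnni1 and Tnnc1 stood at 0.588 and 0.889 TPM and had between them 4 to 23 reads per library. The fast subunits lay close together, with Tnnt3 at 18.4 TPM, Tnnc2 at 12.6 TPM and Tnni2 at 10.2 TPM. Tnnt1 made up 82.5% ± 2.38 of troponin T message in Pax7WT and 79.9% ± 5.87 in Pax7KR, but the fast Tnni2 made up 96.2% ± 0.896 and 93.4% ± 3.51 of troponin I, and the fast Tnnc2 93.1% ± 5.49 and 93.1% ± 4.57 of troponin C (SD, n = 3). Tnnt1 reads were spread over 7 models with at least 5% of its TPM each. The leading one, Tnnt1-206 with 250 codons, held 39.7%, a model described after its values were seen.

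The fast troponin genes were lowest in the same library. Tnnt3 measured 17.1, 15.8 and 22.6 TPM in Pax7WT and 22.02, 20.5 and 12.7 TPM in Pax7KR. Tnnc2 measured 9.48, 14.9 and 16.3 TPM in Pax7WT and 11.6, 17.1 and 6.36 TPM in Pax7KR. Tnni2 measured 8.54, 11.1 and 11.6 TPM in Pax7WT and 11.3, 11.6 and 7.17 TPM in Pax7KR. All 3 were lowest in the third Pax7KR library and overlapped between the groups. Without that library their log2 fold changes moved from -0.12, -0.27 and -0.12 to 0.05, 0.01 and 0.06, in the same order.

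Acta1, the skeletal alpha-actin gene, was measured at 21.1 ± 2.01 TPM in Pax7WT and 22.4 ± 4.20 TPM in Pax7KR. Its log2 fold change was 0.03 (95% interval -0.26 to 0.32). The cytoplasmic actins Actb and Actg1, from a list of non-muscle paralogues, stood at 1420 ± 142 and 1592 ± 203 TPM in Pax7WT, and 4.11% of the 31-base words of Acta1 transcripts also occur in other genes, mostly Actb. Actc1, the cardiac and embryonic alpha-actin, had 9, 16 and 4 reads in Pax7WT and 6, 52 and 18 in Pax7KR. The second Pax7KR library was the highest by far and the groups overlap. By edgeR its log2 fold change was 1.23 (SE 0.77) with an adjusted p of 0.992.

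At the Z-disc alpha-actinin anchors the thin filaments. Actn3, its fast-fibre form at chr19:4861216-4877909, had the most reads of the 36 genes, 3125 to 5185 per library, and 99.9% of them lay on coding models. It measured 114, 106 and 119 TPM in Pax7WT and 115, 82.7 and 111 TPM in Pax7KR. The second Pax7KR library was the lowest, and the other 5 lay between 106 and 119 TPM. The log2 fold change was -0.21 (SE 0.13, 95% interval -0.50 to 0.09), and -0.06 without that library. Actn2, the form present in all fibres, was at 2.45 ± 0.533 TPM in Pax7WT and 2.51 ± 0.395 TPM in Pax7KR. Actn3 thus made up 97.9% ± 0.567 and 97.6% ± 0.310 of the 2 alpha-actinins.

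Titin and nebulin, the giant proteins of the sarcomere, and the remaining Z-disc genes were scarce. The molecular spring titin, which spans the sarcomere from the Z-disc to its middle, had 63 to 181 reads per library for Ttn, whose leading model Ttn-201 of 81999 bases held 69.6% of its TPM. The thin filament ruler nebulin had 127, 62 and 314 reads in Pax7WT and 113, 190 and 287 reads in Pax7KR for Neb. Neb reads varied by a coefficient of variation (CV) of 59.97% in normalized count over the 6 libraries, where counting error gives 7.41%. Its models shared the reads unevenly, since the 2303-base model Neb-206 took 30.3% of its TPM in 1 library and 94.99% in another. With transcript length as an offset the log2 fold change of Neb turned from 0.17 to -0.14.

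Tcap (telethonin, which caps titin at the Z-disc), Myoz1 (calsarcin of fast fibres), Myot (myotilin) and Ldb3 (a Z-disc scaffold) averaged 3.75, 2.37, 0.605 and 1.03 TPM. Tcap was measured at 0.921, 3.80 and 4.70 TPM in Pax7WT and 5.68, 4.26 and 3.14 TPM in Pax7KR, with the first Pax7WT library far below the others. Myoz1 was lowest in the second Pax7WT library with 9 reads and in the third Pax7KR library with 15 reads. Of the Ldb3 models, Ldb3-207 with 288 codons held 64.5% of the TPM and Ldb3-205 with 684 codons held 17.7%. All 4 genes overlapped between the groups.

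In the thick filament, the myosin heavy chains are the motors, and the binding protein C family braces them. Mybpc1, slow myosin binding protein C at chr10:88518279-88605152, measured 44.9, 41.8 and 44.5 TPM in Pax7WT and 50.9, 43.0 and 39.3 TPM in Pax7KR. Both ends of that range were Pax7KR libraries. Its log2 fold change was -0.08 (SE 0.08, 95% interval -0.25 to 0.09). Models with a retained intron, described after their values were seen, held 13.8% (Mybpc1-203) and 5.85% (Mybpc1-204) of its TPM. Such models held 4.28% of its reads. Mybpc2, the fast form, was at 1.12 ± 0.146 TPM in Pax7WT and 0.936 ± 0.380 TPM in Pax7KR, so that Mybpc1 made up 97.5% ± 0.249 and 97.9% ± 0.867 of the pair.

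All 6 myosin heavy chain genes together summed to 3.95 ± 0.948 TPM in Pax7WT and 4.06 ± 1.32 TPM in Pax7KR, with 182 to 325 reads per library. Myh4, the IIB chain of the fastest fibres, had most of these reads, with 219, 165 and 207 in Pax7WT and 203, 176 and 93 in Pax7KR. Its level was 2.46 ± 0.278 TPM in Pax7WT and 1.95 ± 0.664 TPM in Pax7KR, lowest in the third Pax7KR library. By edgeR the log2 fold change of -0.41 (SE 0.23) had an adjusted p of 0.992. Myh1 (IIX) averaged 0.753 TPM, Myh7 (slow) 0.712 TPM and Myh2 (IIA) 0.196 TPM. However, 71.5% of the Myh7 TPM lay on Myh7-206, a model of 595 bases with a retained intron. The model Myh7-201 of 1935 codons was at 0.0940 ± 0.0479 TPM in Pax7WT and 0.154 ± 0.112 TPM in Pax7KR. Both models are described after their values were seen. In all 6 libraries Myh7 had 76 reads and Myh2 had 91, so the TPM order of these 2 genes is not that of their reads. Between 22.9% and 37.9% of the 31-base words of Myh1, Myh2, Myh4 and Myh7 occur in another myosin gene, so their reads could be split in more than 1 way and the levels of single chains are uncertain.

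Myosin light chains clasp the neck of the motor. The 5 light chain genes summed to 22.8 ± 5.14 TPM in Pax7WT and 23.6 ± 2.19 TPM in Pax7KR, more than 5 times the heavy chains. Myl1, the fast essential light chain, was at 8.34 ± 3.19 TPM and 8.86 ± 0.675 TPM, and Mylpf, the fast regulatory light chain, at 8.81 ± 2.53 TPM and 8.11 ± 0.954 TPM in the same order. Both overlapped between the groups. Myl4, of embryonic muscle and atrium, was at 3.85 ± 0.296 TPM and 4.0045 ± 0.622 TPM, but 52.7% of its reads lay on models with a retained intron. Myl2, the slow regulatory light chain, had 9, 1 and 7 reads in Pax7WT and 15, 13 and 8 reads in Pax7KR. Its normalized counts did not overlap between the groups, whereas its TPM did, and by edgeR its log2 fold change of 1.06 (SE 0.73) had an adjusted p of 0.992. Myl3, of slow fibres, had 38 reads in all 6 libraries.

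Among the genes of calcium handling and energy supply, Ryr1 and Atp2a1 were well counted and Ckm, Casq1 and Pvalb were not. Ryr1, the calcium release channel, measured 9.56, 7.57 and 10.002 TPM in Pax7WT and 11.1, 10.5 and 9.59 TPM in Pax7KR. Models with a retained intron, described after their values were seen, held 28.6% (Ryr1-206) and 12.9% (Ryr1-205) of its TPM. Such models held 9.72% of its reads. Ryr1 had the narrowest 95% interval around 0 of these 5 genes, from -0.14 to 0.17 around a log2 fold change of 0.02. Atp2a1, the fast calcium pump SERCA1, measured 31.1, 29.1 and 32.3 TPM in Pax7WT and 27.1, 21.4 and 37.6 TPM in Pax7KR. The Pax7KR libraries were both the lowest and the highest. Its log2 fold change was -0.17 (SE 0.23), 0.02 without the second and -0.42 without the third Pax7KR library.

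Muscle creatine kinase, Ckm, was at 11.9 ± 2.49 TPM in Pax7WT and 12.4 ± 2.24 TPM in Pax7KR, with a log2 fold change of -0.01. Pvalb, parvalbumin, a calcium buffer of fast fibres, was at 5.23 ± 0.356 TPM and 4.95 ± 0.726 TPM. Casq1, calsequestrin, which stores calcium in the reticulum, was at 2.11 ± 0.425 TPM and 1.66 ± 0.428 TPM, and 54.8% of its reads lay on a model with a retained intron. The last exons of Atp2a1 overlap the opposite-strand gene Rabep2, with 567 to 804 reads per library. Tnnc1, with 2 to 13 reads, overlaps Nisch, with 9438 to 14065 reads. The library kit keeps strand, but whether the counting used it is not given in the sources used here.

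**Figure D3:**
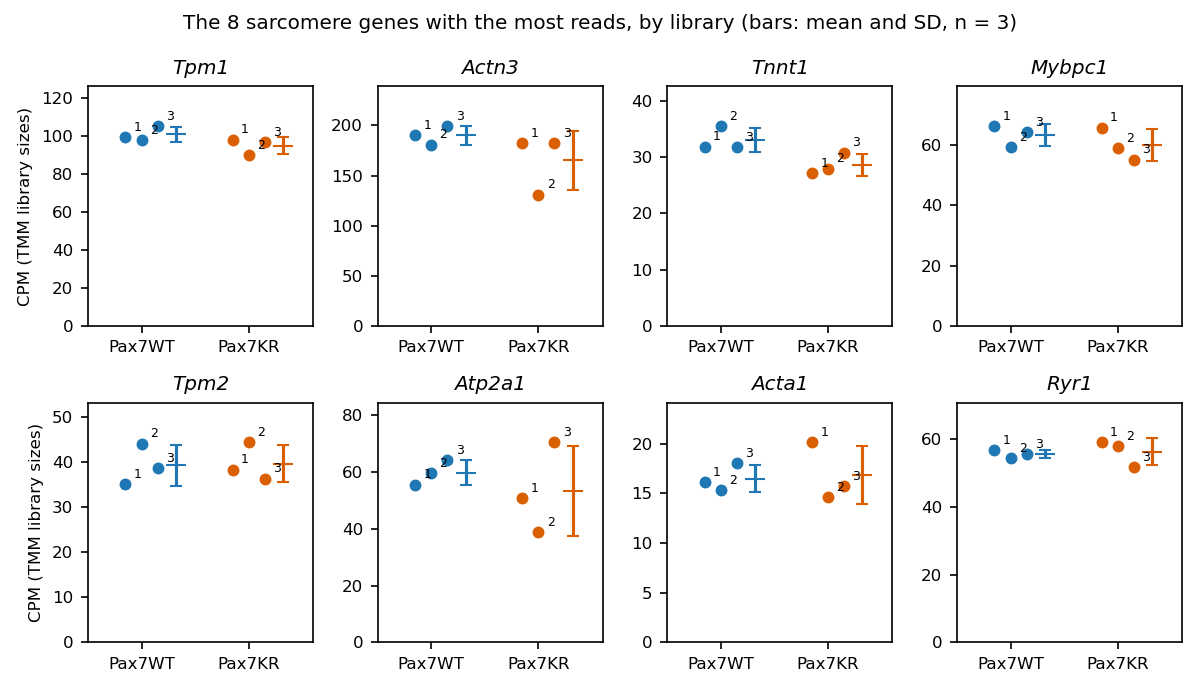
Normalized counts (CPM, counts scaled to the TMM library size) of the 8 sarcomere genes with the most reads in the 3 Pax7WT and 3 Pax7KR libraries, numbered by replicate, with mean and SD beside them; each axis starts at 0. Tnnt1 is the panel in which the groups do not overlap, and the second Pax7KR library is the lowest for Tpm1, Actn3, Atp2a1 and Acta1.

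By fibre class, the 14 fast genes summed to 218 ± 19.3 TPM in Pax7WT and 201 ± 18.8 TPM in Pax7KR. Fold changes were below 0 in 11 of the 14 and above 0 in 3, with a median of -0.16 on the log2 scale. Of all genes tested, 51% were below 0. In the third Pax7KR library 12 of the 35 tested genes had their lowest normalized count, among them 6 of the 14 fast and 4 of the 7 slow genes. The share of all genes tested that were lowest there was not counted, so this is not shown to be a trait of the sarcomere genes. The 7 slow genes summed to 136.9, 127.9 and 137.1 TPM in Pax7WT and 127.8, 118.1 and 123.7 TPM in Pax7KR. These groups did not overlap, though the nearest libraries were almost equal. Their summed normalized counts, 99.7, 96.5 and 97.6 CPM in Pax7WT and 95.8, 89.1 and 87.3 CPM in Pax7KR, did not overlap either. The difference of the sums was not tested. Tnnt1 and Mybpc1 held nearly all of the slow sum, and of the 7 fold changes 3 were below and 4 above 0, so the direction of the sum was not that of most of its genes. The 11 genes used by all fibres summed to 208 ± 16.5 TPM and 212 ± 11.5 TPM, with 4 fold changes below 0 and 7 above. Tpm1 averaged 112 TPM of that sum, and 66.3% of its TPM lay on the short models of 248 codons.

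Of the 3 tested genes of developing fibres, Myh3 and Actc1 varied from library to library within each genotype and Myl4 did not. Myl4 had 40 to 57 reads per library, and its CV of normalized count was 11.5%, below the 14.7% of counting error. Myh3, embryonic myosin heavy chain, had 0, 16 and 1 reads in Pax7WT and 1, 35 and 9 reads in Pax7KR. The second Pax7KR library, then the second Pax7WT and the third Pax7KR library, were the highest, and the same 3 libraries were the highest for Actc1. Myog and Mymk, the differentiation factor myogenin and the fusion protein myomaker, were picked from the list of 10 myogenic factors after these values were seen. Myog had 36, 63 and 37 reads in Pax7WT and 25, 152 and 66 reads in Pax7KR. Mymk had 5, 10 and 3 reads in Pax7WT and 0, 27 and 14 reads in Pax7KR. For all 4 genes the second Pax7KR library was the highest. This was not the case for most of the myogenic factors, of which 3 of 10, Myog, Mymk and Mymx, were highest in that library by normalized count and 2, Myf6 and Mef2d, were lowest there. The part of Myog and Mymk in the values of Myh3 and Actc1 was not tested. Without that library the log2 fold change of Myh3 turned from 1.12 to -0.35 and that of Actc1 went from 1.23 to 0.25. Of the 35 tested sarcomere genes, 8 had their highest normalized count in that library and 6 their lowest, Actn3, Atp2a1 and Tpm1 among the latter. These shares were not counted over all genes.

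**Figure D4:**
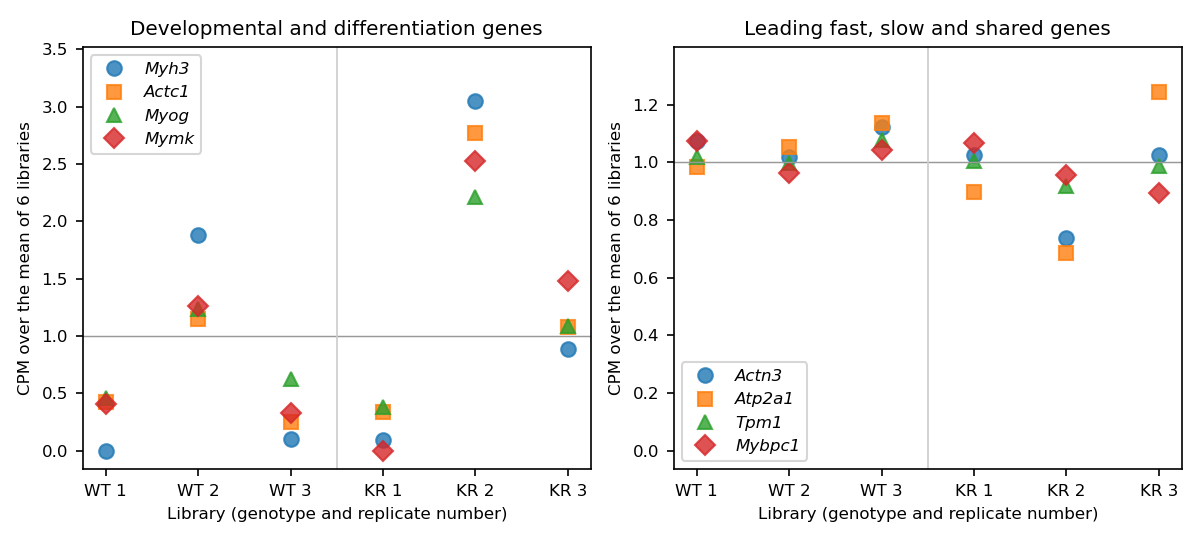
CPM of each gene divided by its mean over the 6 libraries, for Myh3, Actc1, Myog and Mymk (left) and for Actn3, Atp2a1, Tpm1 and Mybpc1 (right), in the Pax7WT (WT) and Pax7KR (KR) libraries by replicate number. The second Pax7KR library is the highest for the 4 genes on the left and the lowest for Actn3, Atp2a1 and Tpm1. Tpm1 and Mybpc1 stay near 1 in every library.

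The spread between libraries, taken over both genotypes, was above counting error in 32 of the 35 tested genes, Myl4, Casq1 and Pvalb being the others. It was more than 2 times as large in 18. The share of all genes tested with such a spread was not counted, so this is not shown to be a trait of the sarcomere genes. The 7 genes with a mean of at least 500 reads, Tpm1, Actn3, Tnnt1, Mybpc1, Tpm2, Atp2a1 and Ryr1, had a CV of normalized count over the 6 libraries of 4.72% for Ryr1 to 19.5% for Atp2a1. The median over all 7255 genes with as many reads was 6.55%. Tpm1 at 5.09% and Mybpc1 at 7.27% lay near it, and Actn3 at 13.5% lay above. At the other end, 10 genes averaged fewer than 20 reads, and a CV of 123% for Myh3 and 94.9% for Actc1 exceeded the 31.1% and 23.9% of counting error alone.

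**Figure D5:**
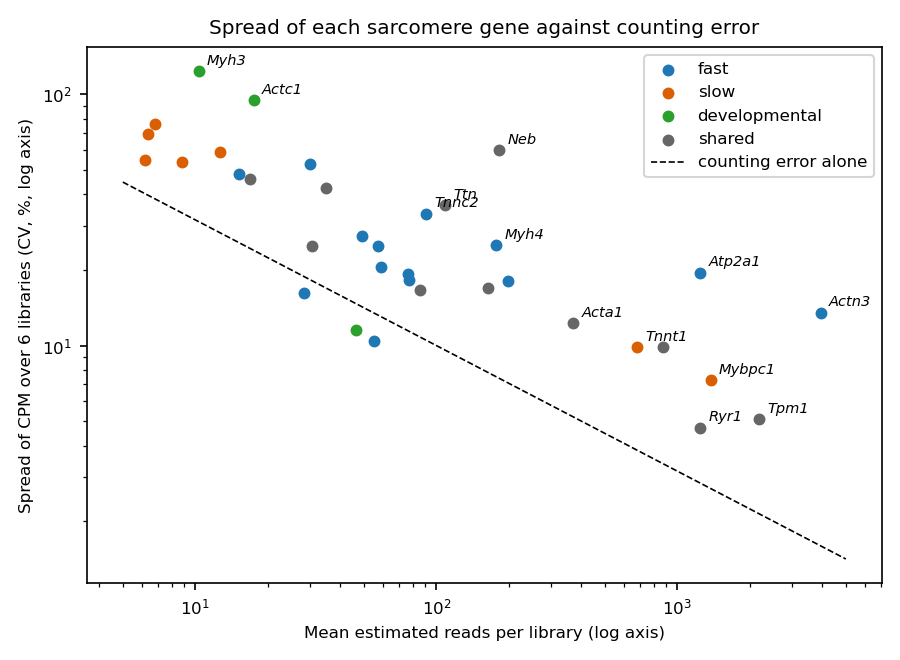
Spread of normalized count over the 6 libraries (CV, %) against mean estimated reads per library for the 35 tested sarcomere genes, coloured by fibre class, on log axes; the dashed line is counting error alone. Ryr1 and Tpm1 lie at 4.72% and 5.09%, and Neb, Actc1 and Myh3 lie far above the line.

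The bases before the start site are shown for the genes that lead the order, for the most abundant actin and myosin of a fibre, and for Myh3. RefSeq windows on GRCm38.p6 were found for 29 of the 36 genes, 34 windows in all, and none for Tnni2, Tnnt3, Actn3, Myoz1, Myot, Tcap and Neb. Each line gives the 250 bases before the annotated start. Capitals mark CAGCTG (an E-box, the kind of site that MYOD and myogenin bind), the MEF2 motif and TATAAA.
Tpm1, chr9:67049214-67049463, strand -: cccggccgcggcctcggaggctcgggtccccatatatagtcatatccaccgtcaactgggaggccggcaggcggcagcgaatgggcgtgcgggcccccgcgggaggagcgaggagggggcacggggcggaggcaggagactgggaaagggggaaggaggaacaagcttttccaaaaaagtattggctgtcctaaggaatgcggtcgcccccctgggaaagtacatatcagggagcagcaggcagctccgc
Tnnt1, chr7:4515976-4516225, strand -: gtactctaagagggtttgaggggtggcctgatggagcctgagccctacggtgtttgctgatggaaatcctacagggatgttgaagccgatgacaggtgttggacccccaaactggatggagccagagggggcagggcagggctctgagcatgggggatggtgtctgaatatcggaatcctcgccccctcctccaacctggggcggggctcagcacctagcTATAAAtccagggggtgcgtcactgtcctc
Mybpc1, chr10:88605153-88605402, strand -: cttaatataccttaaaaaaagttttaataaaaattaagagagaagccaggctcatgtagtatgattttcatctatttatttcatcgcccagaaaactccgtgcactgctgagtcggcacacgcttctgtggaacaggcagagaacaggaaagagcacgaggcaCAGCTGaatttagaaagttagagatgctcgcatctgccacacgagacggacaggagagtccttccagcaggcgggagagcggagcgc
Acta1, chr8:123894776-123895025, strand -: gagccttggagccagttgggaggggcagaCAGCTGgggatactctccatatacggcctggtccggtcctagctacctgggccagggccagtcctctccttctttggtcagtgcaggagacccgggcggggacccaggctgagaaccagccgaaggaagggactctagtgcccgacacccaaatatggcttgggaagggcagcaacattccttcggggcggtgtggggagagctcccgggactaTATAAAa
Myh4, chr11:67237562-67237811, strand +: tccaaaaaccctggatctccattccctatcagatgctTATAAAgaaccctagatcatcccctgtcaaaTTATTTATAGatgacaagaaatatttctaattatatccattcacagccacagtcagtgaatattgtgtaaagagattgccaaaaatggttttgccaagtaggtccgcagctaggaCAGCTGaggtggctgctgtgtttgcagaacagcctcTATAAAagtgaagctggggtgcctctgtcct
Myh3, chr11:67078050-67078299, strand +: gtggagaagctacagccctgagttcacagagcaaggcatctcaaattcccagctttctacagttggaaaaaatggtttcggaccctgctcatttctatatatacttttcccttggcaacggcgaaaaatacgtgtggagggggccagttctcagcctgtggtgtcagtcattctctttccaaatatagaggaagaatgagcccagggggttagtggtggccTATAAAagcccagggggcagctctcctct
The Tpm1 window ends at the base before the start of Tpm1-205, and Tpm1-215 starts inside it, whereas Tpm1-211 starts 5411 bases further on. The window held none of the 3 motifs. Tnnt1 and Myh3 held TATAAA 30 and 29 bases before the start and no CAGCTG, Mybpc1 held CAGCTG 87 bases before it, and Acta1 held CAGCTG at 221 and TATAAA at 7 bases. In Myh4 CAGCTG lay 67 bases before the start, TATAAA at 213, 179 and 31 bases, and the MEF2 motif at 182 bases, overlapping the second of these.

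Searched on both strands, CAGCTG was in 12 of the 34 windows, and in 13.0% of all 32841 windows of the same length. The 2 windows of Tnni1 share their site. The MEF2 motif was in 5 of 34 windows and in 1.69% of all. The windows of Myh1, Myh4 and Myh8, all on chromosome 11, hold the same bases at this motif, so these matches are not independent. Those bases also give a TATAAA match on the other strand, the only one in the Myh8 window. TATAAA was in 8 of 34 against 12.4% of all. CANNTG, which includes CAGCTG, was in 26 of 34 against 66.2%, and TAAT, the core that homeodomains such as that of PAX7 bind, was in 14 of 34 against 54.9%. A match describes the letters and is not a binding site.

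A further 40 genes of myofibres outside the 36 showed the same lack of calls. Of 36 tested, 0 passed the cut-off by edgeR, 19 had a fold change above 0 and 17 below, and the median was 0.06 on the log2 scale. Their 3 highest were Des, the intermediate filament desmin, at 301 ± 22.02 TPM in Pax7WT and 295 ± 0.759 TPM in Pax7KR, Pygm, muscle glycogen phosphorylase, at 62.7 ± 7.14 and 59.0 ± 6.07 TPM, and Mylk2, the skeletal light chain kinase, at 43.2 ± 2.33 and 50.5 ± 6.41 TPM. Among 10 myogenic factors 9 were tested and 0 passed. Their highest, Myod1, stood at 147 ± 32.6 TPM in Pax7WT and 139 ± 15.6 TPM in Pax7KR. The 11 non-muscle paralogues of sarcomere genes were all tested, 0 passed, and they summed to 4893 to 5899 TPM per library, far above the sarcomeric ones.

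Markers of heart muscle were nearly absent, with 3 of 6 tested and Myl7 and Nppa at 0 reads in every library. The highest of them, Tnni3, cardiac troponin I, had 13, 5 and 12 reads in Pax7WT and 26, 36 and 27 reads in Pax7KR. Its groups do not overlap, higher in Pax7KR as in 5.14% of all genes tested. By edgeR its log2 fold change of 1.52 (SE 0.47) had an unadjusted p of 0.00615 and an adjusted p of 0.992. Of all genes tested, 2.26% were higher in Pax7KR at an unadjusted p under 0.05. The groups of Ryr2 did not overlap either, with 12, 11 and 9 reads in Pax7WT and 21, 18 and 15 reads in Pax7KR.

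Markers of other cells of muscle were read in every library, and 0 passed the cut-off in any list, but a few genes carried the largest sums. Smooth muscle and pericyte markers summed to 762 to 942 TPM per library, of which Notch3, Acta2 and Tagln held 89.8%, and the other 11 averaged at most 26.2 TPM. Fibro-adipogenic markers summed to 1362 to 1558 TPM, of which Gsn and Col3a1 held 95.1%, and the other 7 averaged 0.722 TPM, for Pdgfra, to 33.6 TPM, for Dcn. Endothelial markers summed to 134 to 225 TPM, of which Tek and Pecam1 held 56.7%, with Tek at 78.8 TPM, Pecam1 at 16.8 TPM and a median gene at 8.46 TPM. Whether satellite cells themselves held RNA of Notch3, Tek or the other markers was not tested. Immune markers summed to 33.0 to 79.5 TPM, tenocyte markers to 30.5 to 61.8 TPM and Schwann and glial markers to 49.9 to 92.8 TPM.

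Erythroid markers summed to 719 to 1386 TPM in Pax7WT and 1264 to 2054 TPM in Pax7KR, with overlapping groups. Fold changes were above 0 in all 5 erythroid genes (median 0.66), in all 3 tested cardiac genes (median 0.67) and in 10 of 11 endothelial genes (median 0.40). They were below 0 in 13 of 14 smooth muscle and pericyte genes (median -0.18), where 51% of all genes tested were below 0. The second Pax7KR library, highest for Myh3 and Actc1, was also the highest for 8 of the 11 endothelial genes, a share that was not counted over all genes. The part of these markers in the sarcomere values was not tested.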

How the data were processed

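RNA of 6 libraries of sorted satellite cells, 3 Pax7WT and 3 Pax7KR, was sequenced from 15 ng of input per sample. Per the labels the authors used Salmon (version 1.3.0) on GRCm38, with GENCODE M25 transcripts by the study's methods, and deposited estimated counts per transcript, not normalized, with TPM and effective lengths. The authors' table of their own comparison, made with DESeq2 (version 1.28.1), was not used.

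The estimated counts were summed per gene through GENCODE M21 and rounded. Of 140992 transcripts, 139791 matched, and 0.606% of reads did not. Genes with at least 5 reads in at least 2 libraries were tested with edgeR (version 4.0.16, R version 4.3.3) on genotype alone, with TMM sizes and robust quasi-likelihood, and adjusted by Benjamini-Hochberg over 17152 genes with a cut-off of 0.1. Levels between genes are summed TPM. Alternatives used DESeq2 (version 1.42.0) and limma (version 3.58.1). Groups came from the labels. Depth was 17822367 to 27908054 reads, and errors cover the spread between libraries. Transcripts were described at 5% or more of a gene's TPM. Sequence sharing was counted over words of 31 bases, and promoter sequences are from RefSeq.

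The members, lists and tests were chosen with earlier results of these data known. The named genes are all 36 members, and of other lists the 3 highest by TPM or those past the cut-off, of which the text gives those closest to the sarcomere. The labels do not say whether the replicate numbers pair the samples, and the main test did not pair them. Same-numbered libraries correlated at 0.0018, 0.045 and -0.056 in their deviations from the group means, which cannot show whether they were matched.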

Additional observations from a re-analysis of the deposited data

How the results depend on the processing

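The count of sarcomere genes past the cut-off was 0 under each of the alternatives run, and the lowest adjusted p of any of them was 0.301, for Actn3 without the filter on low counts. Over all genes, the count past the cut-off went from 0 to 30 with DESeq2 and 157 without the filter. It was 13 with the replicate block, although the labels do not say that the numbers pair the samples. With 1 library left out it was 1 to 32, the 32 without the third Pax7KR library. The cause was not tested. The other settings, limma-voom among them, gave 0. The median log2 fold change of the sarcomere genes ran from -0.12 to 0.03 with 1 library left out and from -0.09 to -0.03 under the other settings.

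Of 585 single values, 38 reversed in sign, and 11 of the 35 genes kept their direction throughout, Tnnt1, Tpm1, Actn3, Mybpc1 and Myh4 among them. Ckm turned to 0.00048 with limma-voom and 0.021 with library totals, and with transcript length as an offset Actn2 turned to -0.015, Neb to -0.14, Myoz1 to -0.064 and Ldb3 to 0.074. With 1 library left out, 22 genes turned in at least 1 fit. Their log2 fold changes ran from -0.12 to 0.12 for Acta1, -0.082 to 0.45 for Myh1, -0.62 to 0.21 for Myh2, -0.35 to 4.61 for Myh3, -0.18 to 0.26 for Myl1, -0.35 to 1.00 for Myl3, -0.18 to 0.045 for Myl4, -0.70 to 0.43 for Tnnc1, -0.66 to 0.011 for Tnnc2, -0.45 to 0.97 for Tnni1, -0.25 to 0.063 for Tnni2, -0.24 to 0.046 for Tnnt3, -0.071 to 0.11 for Tpm2, -0.27 to 0.44 for Ttn, -0.28 to 1.097 for Neb, -0.12 to 0.16 for Ckm, -0.67 to 0.21 for Myot, -0.0093 to 0.87 for Tcap, -0.36 to 0.12 for Ldb3, -0.26 to 0.0036 for Casq1, -0.42 to 0.019 for Atp2a1 and -0.019 to 0.075 for Ryr1.

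The slow troponin genes I and C, Myl2 and Myl3 had few reads, and the spread of Myh3, Myh4 and Myh7 exceeded counting error. A minimum of 10 reads in every library left 25 sarcomere genes to test.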
